A study of Homo sapiens with 4 samples.

Results

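The comparison is between human fibroblasts that carried sgRNA-FOXF1, a CRISPR-Cas9 guide against the FOXF1 gene, and the same cells with sgRNA-NT, a non-targeting control guide. Both libraries come from BJ cells, hTERT-immortalized fibroblasts, in which 4-hydroxytamoxifen (4-OHT) switches on RASG12V, and both were collected after 14 days of 4-OHT. RASG12V drives these cells into oncogene-induced senescence (OIS), a lasting arrest of division, so the control is itself a RAS-induced culture and no culture without RASG12V is part of the comparison. Cells with sgRNA-AP1-69 or sgRNA-AP1-71, both directed at the AP-1 motif in the enhancer EnhAP1-OIS1, under the same treatment, make up the other 2 of the 4 libraries and serve here as reference values. The values are RPKM (reads scaled to transcript length and to the mapped reads of the library), quantile-normalized over the 4 libraries and floored at 1. Genes were taken by their level alone: 7589 of the 12033 genes reached an average of 2 RPKM across the 4 libraries and were compared. Each condition has 1 library and FOXF1 has 1 guide, so no difference has a replicate check and no p-value is given; the number of reads behind each value is unknown.

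FOXF1 is a forkhead transcription factor of mesenchymal cells. In development it acts downstream of hedgehog signals in the mesenchyme of lung and gut and is needed for the vessels of the lung. Senescent fibroblasts leave the cell cycle and remodel their matrix and secreted proteins, which makes these the gene groups of first interest when a factor is removed under RAS.

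FOXF1 (ENSG00000103241, GRCh37 chr16:86544133-86549028, plus strand) has 2 exons, at 86544133 to 86545154 and 86546531 to 86549028, in a transcript of 3520 nucleotides. Throughout, 4 values in a row are RPKM with sgRNA-NT, sgRNA-AP1-69, sgRNA-AP1-71 and sgRNA-FOXF1, in that order. FOXF1 measured 29.6, 11.1, 7.8 and 25, so the level with its own guide was 1.18-fold lower than in the control (log2 ratio -0.24), while both enhancer-guide libraries were lower than either. A gene's RPKM sums reads over all its exons and does not show whether the coding sequence was edited, so it does not check the label of the sgRNA-FOXF1 library. The study examined the FOXF1 protein by western blot and reported an effective knockout, which is not analysed here. The neighbouring long non-coding RNA FENDRR, transcribed from the opposite strand, measured 4.7, 1.8, 1.6 and 5.9. Where transcripts overlap, their reads can be told apart only if strand was used in counting, which the sources leave unclear. Whether FENDRR and FOXF1 overlap was not examined.

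Over all genes, 243 (3.20%) exceeded the control by 2-fold or more with sgRNA-FOXF1 and 376 (4.95%) fell short of it by as much, and at 1.5-fold, the step used below for gene lists, 873 (11.5%) were higher and 997 (13.1%) lower. These shares are the background against which every list is read. The median log2 ratio was 0.055 and the SD over genes 0.58, against 0.34 for sgRNA-FOXF1 to sgRNA-AP1-69, 0.44 for sgRNA-FOXF1 to sgRNA-AP1-71 and 0.29 between the enhancer guides. The control library was the lowest of the 4 for 40.3% of the genes and the highest for 29.1%. For sgRNA-FOXF1 these shares were 25.9% and 25.6%. The control was lowest in 232 of the 243 higher genes and highest in 368 of the 376 lower genes. sgRNA-FOXF1 was the highest library in 171 of the 243 and the lowest in 266 of the 376. Such counts are partly fixed by choosing these genes on their ratio to the control. The order of the libraries in genes named below for their ratio is partly fixed in the same way. With 1 control library, a difference of sgRNA-FOXF1 from sgRNA-NT alone cannot be told apart from a property of that library. All 4 values are given for that reason.

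**Figure D1:**
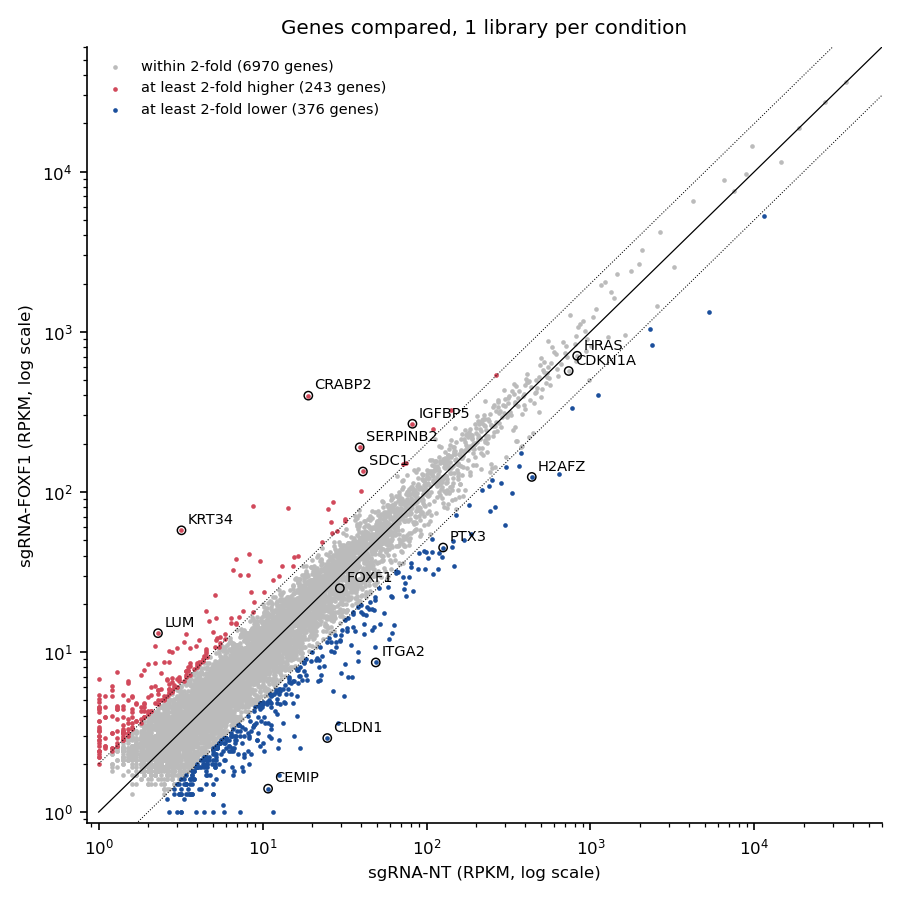
RPKM of each of the 7589 genes compared with sgRNA-NT (x axis, log scale) and sgRNA-FOXF1 (y axis, log scale), 1 library each; the solid line marks equal values, dotted lines a 2-fold difference, and circles the labelled genes. CRABP2 and KRT34 lie farthest above the line, CLDN1 and CEMIP among the farthest below it, and FOXF1 lies close to it at 29.6 and 25 RPKM.

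The ratio to the control also moved with transcript length. With the genes cut into 5 equal groups by length, in the group with the shortest transcripts (122 to 1598 nucleotides) the median log2 ratio was 0.31, and in the group with the longest (5032 to 26468 nucleotides) it was -0.35. Genes at least 2-fold higher had a median transcript of 1879 nucleotides, those at least 2-fold lower one of 5861. Against the enhancer-guide libraries the medians of the 5 groups stayed between -0.07 and 0.02. Across genes, the rank correlation of the log2 ratio with length was -0.45 for sgRNA-NT, -0.06 for sgRNA-AP1-69 and 0.02 for sgRNA-AP1-71, while that with GC content was 0.33, 0.53 and 0.58; the points share libraries and are no replicates. The part of length and GC content in any difference was not tested, and values after a spline correction for length ("length-corrected") stand beside the lists discussed whose median they move by more than the SD between the enhancer guides, and beside some others.

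Of 15 genes listed for the locus and its neighbourhood, 12 were in the table and 8 were compared. GINS2, a subunit of the replicative helicase, measured 3.0, 5.5, 7.8 and 6.0, and C16orf74 measured 2.8, 4.6, 5.6 and 6.9. Both were at least 2-fold higher with sgRNA-FOXF1 than with sgRNA-NT, and in both the control was the lowest of the 4 libraries. MAP1LC3B, a core autophagosome protein, was 1.78-fold lower at 40.3, 28.2, 26.1 and 22.6, and GSE1 was 1.67-fold lower at 3.5, 1.6, 1.2 and 2.1. The respiratory subunit COX4I1 (63.6, 79.9, 84.8 and 74.9) and EMC8 (10.6, 13.7, 14.6 and 13.3) differed by less than 1.5-fold. FOXC2 and FOXL1, the forkhead genes beside FOXF1, were too low to compare, with FOXC2 at the floor of 1 in every library.

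Of 10 forkhead genes compared, FOXF1 included, 1 was higher and 1 lower by 1.5-fold or more. FOXF2, the closest relative of FOXF1, measured 11.4, 8.9, 6.4 and 9.7. FOXC1 measured 3.2, 2.7, 1.6 and 1.4, a 2.29-fold lower level with sgRNA-FOXF1, and FOXE1 measured 1.5, 2.9, 3.1 and 3.1. Among 9 compared mesenchymal and hedgehog partners of FOXF1, BMP4, a secreted morphogen, was higher at 3.0, 5.0, 6.0 and 6.8, and NOTCH2, a receptor, was lower at 15.6, 7.1, 6.2 and 10.0. The hedgehog readouts GLI1 and PTCH1 lay at 1.0 or 1.1 RPKM in all 4 libraries, so the pathway could not be followed at this floor.

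The genes that set the sgRNA-FOXF1 library apart were few. In 15 genes (0.198%) it lay at least 2-fold above each of the other 3 libraries and in 14 (0.184%) at least 2-fold below each. By the same count sgRNA-NT stood above in 130 genes and below in 68, sgRNA-AP1-71 in 9 and 7, and sgRNA-AP1-69 in none at 2-fold and in 6 and 4 at 1.5-fold.

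Above every other library were CRABP2, which carries retinoic acid to its nuclear receptors, at 19, 82.6, 141.9 and 398.8, and KRT34, a hair keratin, at 3.2, 22.3, 16.6 and 57.5. IGFBP5, a secreted binding protein of insulin-like growth factors, measured 82.0, 103.1, 80.8 and 266.1. The other 3 libraries were within 1.28-fold of each other for IGFBP5, and sgRNA-FOXF1 was 2.58-fold above the nearest. PTGS1, the constitutive cyclooxygenase, had the same shape at 24.9, 33.0, 25 and 78.1, as did the heparan sulfate proteoglycan SDC1 at 40.9, 63.9, 53.7 and 134.0. MDK, a heparin-binding growth factor, measured 2.7, 4.1, 3.6 and 10.1. In each of these 3 the control lay within 1.56-fold of the enhancer guides and sgRNA-FOXF1 was at least 2.1-fold above the nearest. HSPB6, a small heat shock protein, measured 6.9, 4.4, 2.9 and 15.2. KRTAP2-3 (6.9, 18.4, 10.4 and 37.9), CAMK1G (5.1, 11.8, 10.6 and 22.6) and NRGN (5.2, 6.8, 8.1 and 16.3) complete the 10 that lay farthest above at a mean of at least 5 RPKM, although CAMK1G was just short of 2-fold. KRTAP2-3 has near-identical copies and its reads may be shared with them. Genes at lower levels, picked after their values were seen, were NTSR1, a neurotensin receptor (1.5, 1.1, 1.8 and 6.6), FIBCD1 (2.5, 2.8, 3.0 and 8.7), KCNN4 (1.2, 2.4, 2.5 and 6.1), CPA4 (2.8, 4.5, 2.6 and 10.0), C3AR1, a complement receptor (1.0, 3.2, 2.7 and 6.8), and DNM1 (2.8, 2.6, 2.5 and 5.8).

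Below every other library were CLDN1, a tight-junction protein, at 24.8, 9.9, 14.8 and 2.9, and CEMIP, which takes part in hyaluronan breakdown, at 10.8, 3.8, 5.4 and 1.4. PTX3, a secreted pattern-recognition protein of innate immunity, measured 126.2, 111.4, 148.7 and 44.9. The other 3 libraries were within 1.33-fold of each other for PTX3, and sgRNA-FOXF1 was 2.48-fold below the nearest. TNFRSF11B, the decoy receptor osteoprotegerin, measured 261.0, 162.2, 228.6 and 80.2. H2AFZ, the histone variant H2A.Z, measured 438.3, 281.4, 266.1 and 123.9. CHAC1, which breaks down glutathione, measured 168.7, 99.6, 102.8 and 49.7. In these 3 the control was the highest library and sgRNA-FOXF1 the lowest, with the enhancer guides between. The same order held for OGFRL1 (16.8, 8.2, 6.1 and 2.5), SLC16A6, a transporter of the monocarboxylate family (12.4, 5.5, 6.6 and 2.5), P3H2, a collagen prolyl 3-hydroxylase (48.6, 21.8, 26.3 and 10.8), and PCDH18, a protocadherin (26.7, 11.4, 13.4 and 5.7). SPRY4-IT1 (7.1, 5.7, 5.2 and 2.3) overlaps SPRY4 and MT1L (35, 14.6, 16 and 7.0) resembles other metallothionein genes, so reads of both are uncertain. TMEM40 (5.0, 3.3, 3.1 and 1.5) and KIAA0232 (3.0, 2.0, 2.1 and 1.0, the last at the floor) were picked after their values were seen. The genes above had a median GC content of 59.1% and those below 44.7%, against 50.6% over all genes compared. After a correction of each ratio for GC content, 9 of the 15 and 8 of the 14 still stood 2-fold apart, among them CRABP2, KRT34, IGFBP5, PTGS1, MDK, CLDN1, CEMIP, PTX3 and CHAC1, while SDC1, HSPB6, H2AFZ and TNFRSF11B did not.

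**Figure D2:**
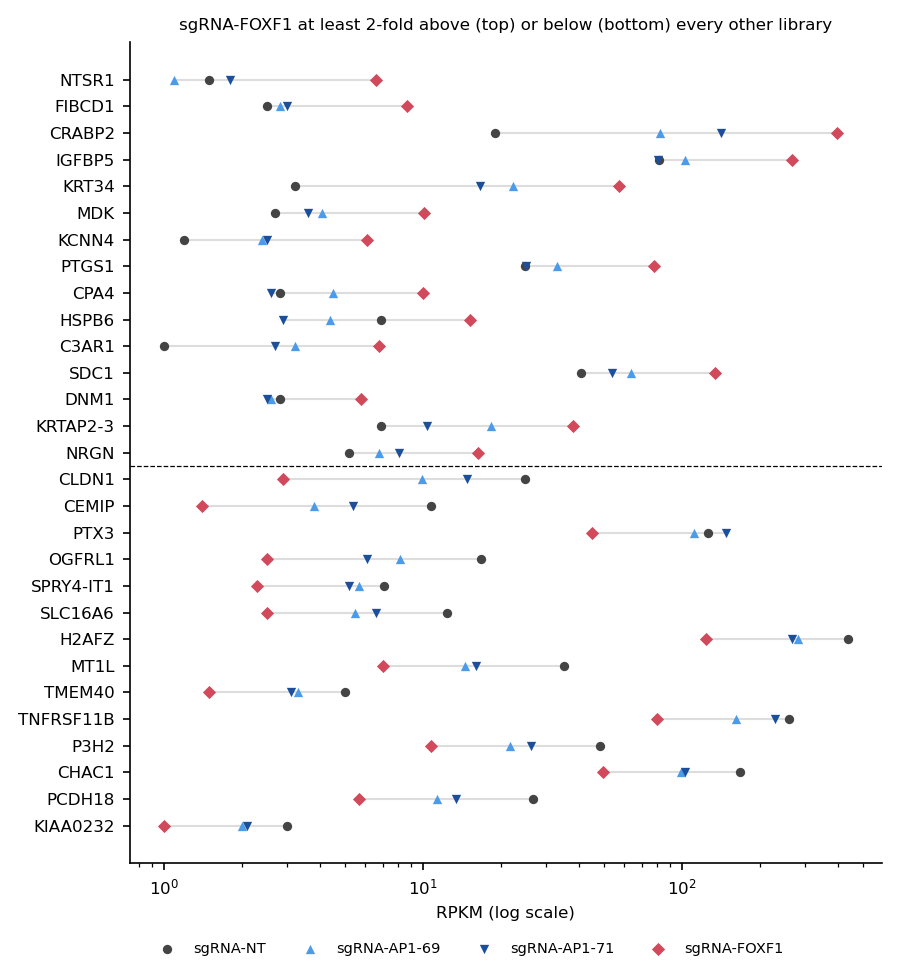
RPKM (x axis, log scale) in the 4 libraries, 1 symbol each, for the 15 genes with sgRNA-FOXF1 at least 2-fold above every other library (top) and the 14 with it at least 2-fold below (bottom). For IGFBP5, PTGS1 and PTX3 the other 3 libraries lie together, while for CRABP2, KRT34 and CLDN1 sgRNA-NT lies at the opposite end.

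Forkhead factors bind the core GTAAACA, read as TGTTTAC on the other strand, so the 250 bases before each RefSeq gene start were searched for it on both strands; these windows were matched by symbol to 5903 of the 7589 genes. It was found before 1.74% of the genes compared, before 2 of 165 matched genes at least 2-fold higher (1.21%) and before 7 of 287 at least 2-fold lower (2.44%), and before 2.98% of all promoters in the RefSeq table. The 9 windows are shown because they are the only called genes with this letter string so near their start; each runs 5' to 3' on the gene's strand (GRCh38.p14, RefSeq), with the match in capitals, and the genes were picked by the match and not by the naming rule.
TXNIP: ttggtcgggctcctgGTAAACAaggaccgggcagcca
CALD1: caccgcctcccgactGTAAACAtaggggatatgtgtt
SWAP70: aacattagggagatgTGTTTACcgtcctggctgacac
FNDC3B: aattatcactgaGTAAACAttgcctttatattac
RNF182: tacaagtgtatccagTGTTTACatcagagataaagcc
CNST: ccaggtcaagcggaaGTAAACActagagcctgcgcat
TMEM181: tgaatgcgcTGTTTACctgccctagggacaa
IGFBP6: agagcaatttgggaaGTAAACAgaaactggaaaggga
CDK1: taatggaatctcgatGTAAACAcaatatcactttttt

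The printed TXNIP window spans chr1:145996682-145996718 (minus strand), and its match begins 124 bases before the start. The printed IGFBP6 window spans chr12:53097466-53097502 (plus strand), with the match 186 bases before the start. TXNIP, an arrestin-family inhibitor of thioredoxin and glucose uptake, measured 73.4, 45.6, 46.1 and 26.9. IGFBP6, a binding protein with preference for IGF2, measured 110.1, 141.1, 124.9 and 248.3, and the mitotic kinase CDK1 1.4, 2.1, 2.4 and 3.5. In all 3 sgRNA-FOXF1 was at the end of the range, lowest for TXNIP and highest for IGFBP6 and CDK1. The actin-binding CALD1 (26.2, 14.9, 11.1 and 10.2), SWAP70 (4.5, 2.7, 2.9 and 1.8), FNDC3B (12.3, 6.2, 6.1 and 5.1), RNF182 (10.6, 7.1, 5.4 and 4.9), CNST (5.3, 3.6, 4.0 and 2.6) and TMEM181 (5.3, 3.4, 3.1 and 2.6) all had sgRNA-FOXF1 lowest and sgRNA-NT highest. Over all genes at least 2-fold lower, sgRNA-FOXF1 was lowest in 266 of 376 and sgRNA-NT highest in 368. Over those at least 2-fold higher, sgRNA-FOXF1 was highest in 171 of 243. The order in these genes was thus the usual one for genes called against sgRNA-NT. For scale, the AP-1 core TGACTCA, searched on both strands, lay in 2.41% of the windows compared, 4.24% of those of higher and 3.14% of those of lower genes, and the palindromic E-box CACGTG in 9.40%, 6.67% and 10.1%. A match is a letter string and not a shown binding site.

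Beyond the genes already named, the 15 highest ratios at a mean of at least 5 RPKM belonged to genes of different kinds, and in most of those given here the enhancer-guide values lay between the control and sgRNA-FOXF1. SERPINB2, an inhibitor of plasminogen activators, measured 39.1, 113.5, 130.6 and 189.8, 4.85-fold over the control. G0S2, an inhibitor of the lipase ATGL and of lipolysis, measured 8.7, 22.5, 48.1 and 81.3. TMEM119 measured 6.6, 15.6, 20.5 and 32.4. In these 3, as in the mitochondrial isocitrate dehydrogenase IDH2 (7.3, 18.0, 25 and 30.1) and C1orf54 (1.9, 4.7, 6.9 and 7.7), the libraries kept one order from sgRNA-NT up to sgRNA-FOXF1. NNMT, a nicotinamide methyltransferase, measured 2.2, 8.8, 11.3 and 10.9, and MC4R, a melanocortin receptor, 2.0, 8.9, 11.1 and 8.4. For NNMT and MC4R, sgRNA-FOXF1 was below sgRNA-AP1-71.

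Keratin and keratin-associated genes stood out. Of 30 listed, 9 were compared, 7 were at least 1.5-fold higher and 1 was lower (median log2 ratio 0.95). KRTAP3-1 measured 14.2, 65.7, 37.1 and 79.0, KRT8, a keratin of simple epithelia, 4.5, 8.6, 7.6 and 10.2, and KRTAP1-5, the lower one, 5.4, 8.9, 5.9 and 3.2. The control was the lowest library in 7 of the 9, KRTAP3-1 and KRT8 among them, against 40.3% of all genes compared. None of 11 epithelial markers, such as EPCAM and CDH1, was in the table, so the keratin values came without those markers. Of the other cell types, endothelial markers were represented by TIE1 alone (1.0, 1.2, 2.4 and 3.3), blood cells by CD14 (9.8, 7.9, 8.5 and 6.0), melanocytes by MITF (3.1, 1.7, 1.1 and 1.0) and adipocytes by PPARG (2.3, 2.1, 1.7 and 1.9). Fibroblast markers were present: 12 of 13 were compared, and their summed level ranged from 4160 RPKM with sgRNA-NT to 5729 with sgRNA-AP1-71, with 5640 for sgRNA-FOXF1. Of those, THY1 measured 148.2, 169.0, 146.8 and 249.5, and PDGFRA, the platelet-derived growth factor receptor alpha, 8.9, 3.9, 5.0 and 3.5. In RNA from whole cultures, a lower level in every cell and fewer cells with a gene cannot be told apart.

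In the retinoic acid group, 9 of 25 genes were compared and 3 were at least 1.5-fold higher, with none lower. RARG, a retinoic acid receptor, measured 7.5, 8.0, 8.9 and 13.6, and NR2F2, an orphan nuclear receptor, 13, 18.3, 12.0 and 19.7. RARA (5.6, 3.5, 2.5 and 3.8) was 1.47-fold lower, and RARB and RXRA were equal in both libraries. The group's median log2 ratio was 0.00, or 0.30 length-corrected and 0.44 at a mean of at least 5 RPKM.

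Structural matrix genes divided by kind. Basement membrane genes were lower: of 14 compared, 9 were at least 1.5-fold lower and 2 higher (median log2 ratio -0.81, length-corrected -0.30 with 5 lower and 3 higher). COL4A1 measured 59.1, 21.7, 17.2 and 12.0, COL4A2, its partner chain in type IV collagen, 82.3, 32.4, 22.2 and 24.1, and PXDN, the peroxidase that cross-links type IV collagen, 123.5, 44, 35 and 38.9. In all 3 the control was more than 2-fold above each other library, and only COL4A1 was lower with sgRNA-FOXF1 than with both enhancer guides. The laminin chains LAMB3 (4.1, 6.7, 7.1 and 11.8) and LAMA4 (2.0, 2.7, 2.5 and 5.2) went the other way and were highest with sgRNA-FOXF1.

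Of 7 fibrillar collagens, 4 were at least 1.5-fold lower and 1 higher (median log2 ratio -0.77, length-corrected -0.24 with 3 lower and 1 higher). COL5A2, a chain of the type V collagen that limits fibril width, measured 145.9, 64.3, 61.9 and 49.2, and COL3A1, of type III collagen, was the higher one at 32.3, 40.3, 41.4 and 58.5. The main chains of type I collagen, picked after their values were seen, hardly differed from the control: COL1A1 measured 120.6, 53.7, 42.5 and 115.6, and COL1A2 287.0, 189.4, 167.1 and 292.3. For both it was the enhancer-guide libraries that were low. Among 9 fibril-associated and microfibril collagens 4 were lower and 1 higher, length-corrected 2 lower and 1 higher. COL12A1 measured 33.4, 8.6, 5.7 and 7.0 and COL6A3 180.8, 62.9, 51.2 and 82.9. Their length-corrected log2 ratios were -1.555 and -0.48, the latter under 1.5-fold.

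Of 19 elastic-fibre and glycoprotein genes, 9 were lower and 3 higher (median log2 ratio -0.45). THBS1, a matricellular protein that can activate latent TGF-beta, measured 142.8, 67.0, 64.0 and 45.3, fibronectin FN1 151.4, 53.9, 33.1 and 71.6, and fibrillin FBN1 21.6, 7.8, 7.0 and 9.2. sgRNA-NT was the highest library for each, and only THBS1 was lowest with sgRNA-FOXF1. Length-corrected, 6 of the 19 were lower and 3 higher.

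Small leucine-rich and cell-surface proteoglycans were higher instead: 4 of 7 compared were at least 2-fold higher and none lower. The median log2 ratio was 1.02, or 1.09 length-corrected and 0.55 at a mean of at least 5 RPKM. LUM, which regulates collagen fibrils, measured 2.3, 8.3, 7.9 and 13.1, 5.7-fold over the control. Its relative decorin, DCN, measured 1.0, 1.4, 2.7 and 3.4, and with the control at the floor it was at least 3.4-fold higher. SDC2 measured 4.6, 7.7, 9.1 and 9.3, beside SDC1 above. All 4 were lowest in the control and highest with sgRNA-FOXF1, SDC2 by a narrow margin over sgRNA-AP1-71. They were picked by their ratio to the control, and sgRNA-FOXF1 was highest in 171 of all 243 genes at least 2-fold higher.

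Of 17 genes for collagen cross-linking and processing, 4 were higher and 2 lower. sgRNA-FOXF1 was the highest of the 4 libraries in 11, against 25.6% of all genes compared. Lysyl oxidases cross-link collagen and elastin, and 3 of them were among the higher genes: LOXL4 measured 8.2, 15.1, 22.9 and 30.1, LOXL1 71.8, 82.9, 64.8 and 148.9 and LOXL3 17.7, 19.2, 22.7 and 34.2. LOXL1 and LOXL3 were close in the other 3 libraries and higher only with sgRNA-FOXF1. SERPINH1, the collagen chaperone HSP47, measured 74.6, 104.2, 99.0 and 150.8, while PLOD2, a lysyl hydroxylase, measured 9.9, 7.1, 6.3 and 4.5.

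**Figure D3:**
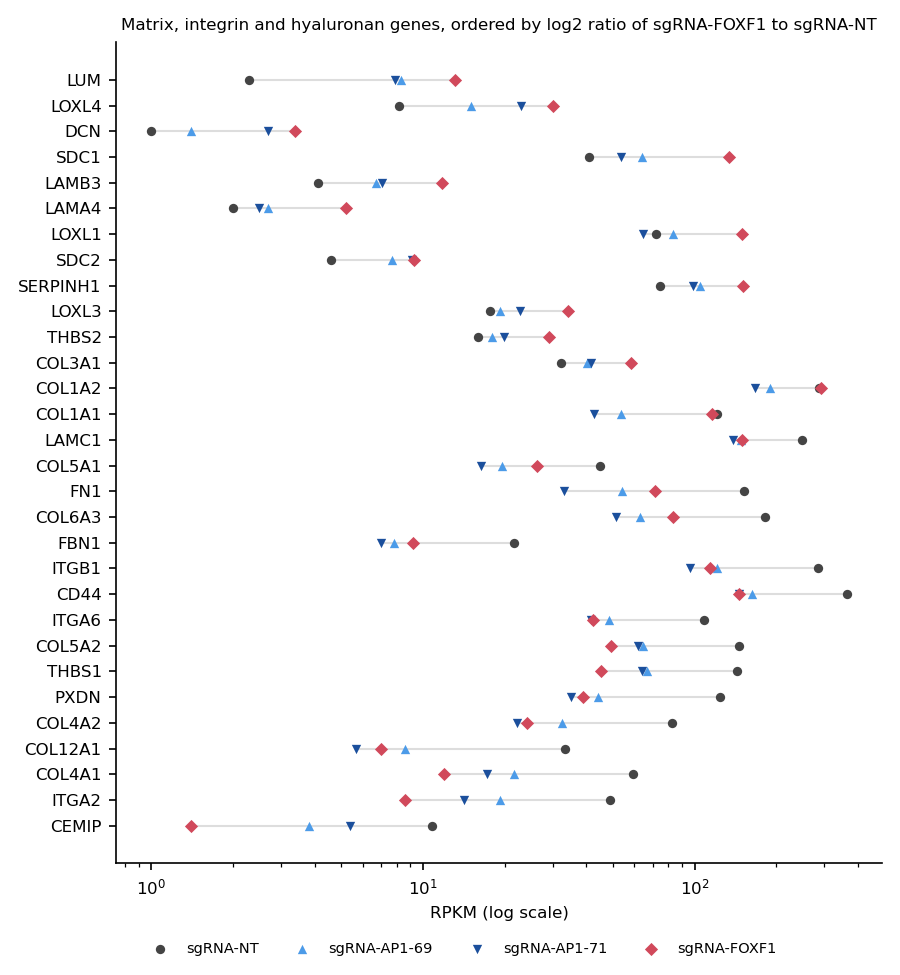
RPKM (x axis, log scale) in the 4 libraries, 1 symbol each, for 30 matrix, integrin and hyaluronan genes ordered by the log2 ratio of sgRNA-FOXF1 to sgRNA-NT; the genes were picked for display after their values were seen. LUM, SDC1 and LOXL1 lie highest with sgRNA-FOXF1, COL1A1 and COL1A2 coincide with the control, and COL4A1 and ITGA2 are highest with sgRNA-NT.

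Among the integrins, receptors that bind this matrix, lower chains were the more frequent. Of 11 integrin chains compared, 6 were at least 2-fold lower and none higher (median log2 ratio -1). Length-corrected, 5 were at least 1.5-fold lower and 1 higher (median -0.56). The size of this median depended on the setting: it was -0.69 with a pseudocount of 1 and -0.64 at a mean of at least 5 RPKM. It was also smaller in size when every gene above the floor was taken. ITGA2, the collagen-binding alpha chain, measured 49.0, 19.2, 14.2 and 8.6, ITGA8 7.5, 3.3, 3.7 and 1.9, and ITGB1, the beta chain shared by most matrix-binding integrins, 283.1, 120.6, 96.1 and 113.6. The laminin-binding ITGA6 measured 107.9, 48.2, 41.5 and 42.4. The control was more than 2-fold above each other library for these 4, and ITGA2 and ITGA8 were lowest with sgRNA-FOXF1. CD44, the hyaluronan receptor, had the same shape at 364.0, 162.7, 145.6 and 145.1, and in the hyaluronan list as a whole 3 of 6 were lower and 2 higher. Of 10 junction genes 3 were lower and none higher (median log2 ratio -0.34), length-corrected 3 lower and 2 higher (median -0.09). CLDN1 led the lower ones, followed by FAT1, a giant cadherin, at 31.3, 7.5, 4.6 and 5.3 and by PCDH18.

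Among 15 giant cytoskeletal linkers, 12 were lower and none higher (median log2 ratio -0.84). Their median transcript was 10211 nucleotides and the control was the highest library for all 15. SVIL, supervillin, measured 12.5, 3.1, 3.3 and 1.7, and AHNAK 117.9, 36.1, 34.2 and 32.9. Length-corrected, the median was -0.25, with 5 lower and 1 higher. Of 13 contractile genes 4 were lower, such as the myosin light-chain kinase MYLK (47.5, 26.4, 23.2 and 18.2), and none was higher. With the length correction 2 of the 13 were lower and 1 higher. The nuclear effectors YAP and TEAD read out cell tension, and of 18 of their genes 8 were lower and 2 higher (median log2 ratio -0.50, length-corrected -0.30). TEAD1 itself measured 11.2, 5.0, 3.4 and 2.9 and CTGF, a common target, 41.0, 31.5, 24.0 and 17.3, each lowest with sgRNA-FOXF1. TEAD2, another member of the family, was higher at 2.6, 5.2, 6.0 and 6.8.

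Proteases and their inhibitors moved gene by gene. Of 11 metalloproteinases and inhibitors 4 were lower and 1 higher. MMP3, stromelysin, measured 146.6, 59.5, 50.0 and 34.2, and MMP1, interstitial collagenase, 978.0, 408.1, 1012.7 and 501.8. MMP1 was high with both sgRNA-NT and sgRNA-AP1-71, so the enhancer guides differed from each other as much as sgRNA-FOXF1 from the control. Of 10 plasminogen-system genes 3 were higher and 2 lower: besides SERPINB2, SERPINB7 was higher at 112.8, 183.1, 165.9 and 212.8, and the urokinase PLAU lower at 1110.8, 543.9, 707.6 and 401.7. PLAU was lowest, and its inhibitor SERPINB2 highest, with sgRNA-FOXF1.

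Of the signalling lists given below, IGF, RAS-ERK and WNT had more members lower than higher at 1.5-fold, with and without the length correction. For WNT this was 3 against 2. Lower genes were also the more frequent over all genes compared, at 13.1% against 11.5% higher. In the IGF system, 6 of 11 were lower and 2 higher (median log2 ratio -0.93, length-corrected -0.37). The 2 higher were IGFBP5 and IGFBP6, above, whereas the binding protein IGFBP3 measured 8.3, 5.4, 6.1 and 3.0. IGF2R, which clears IGF2, measured 46.3, 18.8, 13.6 and 18.5, and the secreted STC2, which acts through this system, 99.7, 71.9, 82.6 and 42.1. IGFBP3 and STC2 were lowest with sgRNA-FOXF1, and IGF2R was low in all 3 targeted libraries.

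Negative feedback genes of the RAS and ERK pathway are induced by ERK activity. Of 25 genes of this pathway 5 were at least 1.5-fold lower and none higher, and all 5 were feedback genes: SPRY4 measured 77.8, 34.5, 29.9 and 29.2, SPRY2 65.1, 40.9, 33.1 and 32.1, SPRED1 10.0, 5.2, 6.5 and 4.7 and SPRED2 16.1, 9.4, 11.8 and 10.1. DUSP6, the ERK phosphatase, measured 80.8, 54.2, 68.2 and 33.7. Of the 5, DUSP6 was the one with sgRNA-FOXF1 well below both enhancer guides. HRAS measured 829.4, 446.4, 427.4 and 707.6; the induced RAS is a form of HRas fused to ER, whose reads may count there, and the level with sgRNA-FOXF1 was 1.17-fold lower than in the control. The growth factors and receptors of other families were divided. Among 18 FGF, VEGF and PDGF genes 6 were lower and 3 higher, length-corrected 3 lower and 3 higher. VEGFC, a lymphatic growth factor, measured 88.7, 42.8, 39.7 and 33.2, and FGF1 4.0, 7.7, 8.1 and 8.1. EGFR measured 10.9, 3.2, 3.0 and 3.0 and its ligand EREG 22.6, 10.7, 15.7 and 7.2. The EGF list of 7 had 2 lower and 2 higher, length-corrected 2 lower and 3 higher.

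In the WNT pathway 3 of 11 were lower and 2 higher. WNT5A, a non-canonical ligand, measured 48.1, 21.3, 33.3 and 14.3, and SFRP1, a secreted WNT antagonist, went the other way at 39.9, 65.3, 88.5 and 100.6. Both had sgRNA-FOXF1 at the far end from the control. Of 11 BMP, activin and ID genes 3 were higher and 3 lower. The BMP antagonist GREM1 measured 1.6, 4.9, 5.3 and 5.3, FSTL1 95.9, 65.6, 77.5 and 42.7 and the receptor BMPR2 3.8, 2.5, 2.0 and 1.6. Of 7 TGF-beta genes only SMAD3 passed 1.5-fold, at 11.4, 6.8, 7.7 and 5.4.

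CDKN1A, the cyclin-dependent kinase inhibitor p21, measured 736.2, 627.8, 512.0 and 568.5, 1.29-fold lower with sgRNA-FOXF1. JUN, an AP-1 subunit, measured 30.8, 28.9, 25.1 and 36.7, and FOS was at the floor of 1 in every library. CDKN1A and JUN thus stayed under 1.5-fold. CDKN2A, the p16 gene, lay at 1.0 or 1.1 RPKM throughout and could not be compared. Of 10 BCL2-family genes 3 were lower and none higher, led by PMAIP1, the death protein NOXA, at 52.1, 30.2, 28.0 and 15. Of 16 senescence inhibitors and pocket-protein genes 3 were higher and 3 lower, and the ubiquitin ligase MDM2 measured 6.2, 3.7, 2.7 and 2.6. PMAIP1 was almost 2-fold below both enhancer guides, whereas MDM2 was at their level.

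Genes of cell division were higher. Of 35 DNA replication genes compared, 19 were at least 1.5-fold higher and none lower (median log2 ratio 0.73), and of 35 mitosis genes 22 were higher and none lower (median 0.65). Length-corrected, 20 and 16 were higher and none lower. The replicative helicase subunit MCM2 measured 6.4, 10.6, 12.8 and 15.2, GINS4 2.3, 3.0, 3.1 and 5.8, and FAM64A, a mitotic gene, 2.2, 4.6, 5.8 and 6.1. The securin PTTG1 measured 15.3, 28.2, 42.8 and 34.2. The control was the lowest library in 30 of the 35 replication and 28 of the 35 mitosis genes, against 40.3% of all genes. sgRNA-FOXF1 was the highest in 14 and 9, the latter near the 25.6% over all genes. Most of these genes were thus as high or higher with an enhancer guide. Not all cell-cycle regulators followed: E2F7, a repressor of E2F targets, measured 15.6, 5.8, 3.8 and 3.0, and cyclin CCND1 775.8, 488.1, 364.0 and 334.2. The transcription factors E2F1 (5.1, 7.6, 8.6 and 10.7) and MYBL2 (3.4, 5.1, 7.4 and 7.6) were higher. For each of the 4, sgRNA-FOXF1 was at the end of the range opposite to the control. Of 16 histone genes 3 were lower and none higher, with H2AFZ far below the rest.

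**Figure D4:**
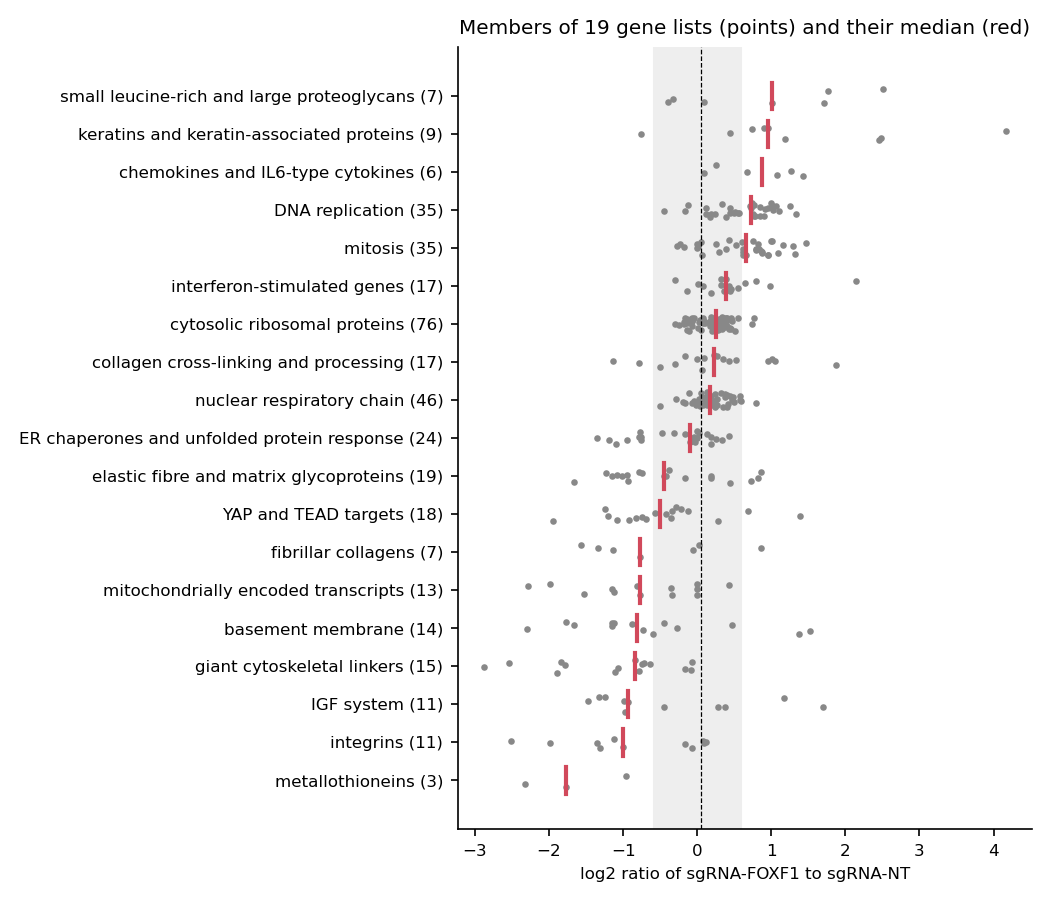
Log2 ratio of sgRNA-FOXF1 to sgRNA-NT for the compared members (points, number in parentheses) of 19 gene lists ordered by their median (red bars); the grey band marks less than 1.5-fold and the dashed line the median of all genes, 0.055. Proteoglycans, keratins, replication and mitosis genes lie to the right, and integrins, IGF genes, linkers and basement membrane genes to the left.

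Of 32 chemokines and IL6-type cytokines, 21 were in the table and 6 were compared, of which 4 were at least 1.5-fold higher and none lower. CXCL8 measured 32.0, 45.2, 350.2 and 67.3, CXCL1, another neutrophil attractant, 16.5, 24.1, 148.2 and 39.6, and the monocyte attractant CCL2 5.0, 10.2, 25.7 and 13.4. All 3 were highest with sgRNA-AP1-71, next with sgRNA-FOXF1 and lowest in the control. IL1B measured 114.5, 113.2, 311.8 and 73.7, so it was lowest with sgRNA-FOXF1. IL6 did not rise above 1 RPKM in either library compared. Of 17 interferon-stimulated genes 4 were higher and none lower, with IFIT1 at 1.0, 3.4, 3.4 and 4.4 and IFI35 at 7.0, 14.3, 20.9 and 13.8.

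Of the glucose and stress lists given here, all but glycolysis and heat shock had more members lower than higher at 1.5-fold. The shares over all genes compared were 13.1% lower and 11.5% higher. Among 18 small and cytosolic heat shock genes 3 were higher and 2 lower. In the arrestin-domain and glucose-sensing list 5 of 10 were lower and 1 higher: ARRDC4, the closest relative of TXNIP, measured 28.9, 11.2, 6.6 and 3.6 and TXNRD1, thioredoxin reductase, 51.4, 36.4, 40.6 and 25. ARRDC4, TXNIP and TXNRD1 were all lowest with sgRNA-FOXF1 and highest with sgRNA-NT. In glycolysis and glucose transport 2 of 22 were lower and 3 higher. The hexokinase HK2 measured 41.6, 18.9, 17.1 and 13 and the glucose transporter SLC2A1 98.0, 53.3, 45.7 and 32.9, whereas GAPDH measured 4212.3, 7555.4, 7555.4 and 6517.0. HK2 was 3.2-fold and SLC2A1 2.98-fold lower than in the control, while 17 of the 22 differed by less than 1.5-fold.

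In the ATF4 amino-acid response 7 of 27 were lower and 1 higher. SLC7A11, the cystine transporter, measured 7.3, 2.5, 1.4 and 1.0, at least 7.3-fold lower with sgRNA-FOXF1 at the floor, and its heavy chain SLC3A2 35.6, 27.9, 17.7 and 17.2. PHGDH, the first enzyme of serine synthesis, was the higher one at 3.5, 6.6, 7.4 and 8.0. Of 24 ER chaperone and unfolded-protein genes 8 were lower and none higher, led by SEL1L (8.9, 4.8, 4.7 and 3.5) and EDEM1 (16.5, 9.3, 11 and 7.7), of ER-associated degradation, and the co-chaperone DNAJC3 (7.3, 3.8, 3.8 and 3.2), each lowest with sgRNA-FOXF1. Of 23 antioxidant genes 5 were lower and 2 higher, with the secreted superoxide dismutase SOD3 at 646.3, 200.4, 128.6 and 129.2. All 3 metallothioneins compared were lower, MT2A at 334.2, 99.3, 87.7 and 98.3 and MT1E at 31.2, 34.6, 23.6 and 16. SOD3 and MT2A were low in all 3 targeted libraries, while MT1E was lowest with sgRNA-FOXF1 and near the control level with sgRNA-AP1-69.

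Lists of general cell machinery differed in how many members passed 1.5-fold. Of 76 cytosolic ribosomal proteins 2 were higher and none lower (median log2 ratio 0.25, length-corrected 0.06), and of 46 nuclear respiratory-chain genes 2 were higher and none lower. Of the 13 mitochondrially encoded transcripts 7 were lower and none higher (median log2 ratio -0.77). MT-ND6, the one message of this set on the light strand, measured 300.4, 155.6, 114.8 and 62.0, and MT-ND4L 5249.2, 1073.3, 577.6 and 1326.5. MT-ND6 was lowest with sgRNA-FOXF1 while MT-ND4L was lowest with sgRNA-AP1-71, so the set did not move as a block. In the lysosome list 8 of 28 were lower and 2 higher, with the acid lipase LIPA among the higher at 38.9, 61.5, 52.1 and 71.9. Of 19 chromatin modifiers 7 were lower and none higher (median log2 ratio -0.41, length-corrected -0.08 with 3 lower and 1 higher), and of 28 RNA polymerase II and splicing proteins 7 were lower and none higher, length-corrected 3 lower and none higher.

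Guidance molecules were split evenly, with 6 of 20 semaphorin, plexin and receptor genes higher and 6 lower. SLIT2, a secreted repellent, measured 1.3, 1.6, 2.8 and 4.5 and the ephrin EFNB2 5.5, 6.8, 8.1 and 12.4, both highest with sgRNA-FOXF1. The semaphorins SEMA5A (6.7, 2.7, 2.7 and 1.8) and SEMA3A (11.2, 6.3, 4.9 and 3.3) were lowest with it and highest in the control. Length-corrected, 7 of the 20 were higher and 2 lower.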

How the data were processed

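Poly(A) RNA was sequenced from 4 cultures, 1 per condition. RNA reagents and library kits differ between the labels and the paper's methods. The authors aligned reads to hg19 with TopHat2, counted them per gene with HTSeq (versions not given in the sources used here), converted counts to RPKM and quantile-normalized the libraries. The deposited RPKM values have 1 decimal and a floor of 1; depth is unknown, so no counting interval is given. The 3 deposited columns of the authors' log2 ratios were not used.

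Log2 ratios were computed without a pseudocount for genes that averaged 2 RPKM or more across the 4 libraries; no test was made. The members and the 66 gene lists were chosen with earlier results of these data known. Named genes are FOXF1 and its listed neighbours, HRAS, CDKN1A, JUN, FOS, the 15 highest and 15 lowest ratios at a mean of at least 5 RPKM, up to 5 members of each list by absolute ratio, and up to 10 genes farthest above and 10 farthest below the other libraries; a few genes this rule names are not reported here. Length and GC content came from canonical transcripts of GENCODE v44 lifted to GRCh37, matched by gene ID for 99.5% of the genes compared. Corrections used a spline with 5 knots. The length correction was tested on simulated data with a trend linear in log length, and the GC correction was not tested. Python 3.11.15, numpy 2.4.6, pandas 2.3.3 and matplotlib 3.10.9 were used.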

Additional observations from a re-analysis of the deposited data

How the results depend on the processing

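No paired analysis was possible because each condition has 1 library; leaving out a replicate was likewise not possible, and no difference has an error. Against 243 genes at least 2-fold higher and 376 lower, a pseudocount of 1 gave 127 and 235, a mean of at least 5 RPKM 105 and 214, a 1.5-fold threshold 873 and 997, and a 4-fold threshold 33 and 32. The length correction gave 191 lower genes and 249 higher ones. The other filters, median centring, the GC correction and protein-coding genes alone stayed within 1.5 times. FOXF1 kept a log2 ratio between -0.30 and -0.14. Genes with sgRNA-FOXF1 above and below the other 3 libraries numbered 83 and 107 at 1.5-fold, 9 above at a mean of at least 5 RPKM, and, in a GC correction added after the data were seen, 11 and 8. Of the called values, the hyaluronan median turned to 0.035 when every gene above the floor was taken and NOTCH2 to 0.044 after the length correction. The length correction moved 8 list medians and 85 named genes by more than the SD between the enhancer guides, 0.29; the cause was not tested.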

Other observations

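Pseudogenes of ribosomal proteins were higher with sgRNA-FOXF1 more often than their parent genes, a group picked after the values were seen. Of 25 compared, 18 were at least 2-fold higher with sgRNA-FOXF1 and none lower. RPL37P2 measured 4.5, 18.0, 16.1 and 18.1 RPKM with sgRNA-NT, sgRNA-AP1-69, sgRNA-AP1-71 and sgRNA-FOXF1, RPL3P4 3.4, 12.4, 10.3 and 13, and RPS23P8, the fourth highest ratio in the table at a mean of at least 5 RPKM, 1.3, 5.9, 6.9 and 7.5. The control was the low library in each. Pseudogenes share sequence with their parent genes, whose median log2 ratio was 0.25, so how reads were divided between copies is uncertain.

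In 28 genes at least 2-fold higher the control was at the floor, and in 10 at least 2-fold lower sgRNA-FOXF1 was. ADAMTS19, a secreted metalloprotease, measured 11.5, 1.7, 1.0 and 1.0 RPKM, at least 11.5-fold lower with sgRNA-FOXF1. With both enhancer guides it was at 1.7 or less. CA12, a carbonic anhydrase, measured 1.0, 2.0, 4.0 and 5.4, and SCG5, a chaperone of prohormone convertase, 1.0, 3.3, 5.6 and 4.9. Of 5 HOX genes compared, HOXA9 was lower at 7.5, 6.0, 6.3 and 4.6, and the other 4 differed by less than 1.5-fold. Of 31 proteasome genes 1 was higher and none lower, and of 23 autophagy genes 1 was higher and 5 lower. These genes, apart from HOXA9, were picked after their values were seen.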
